A study of Mus musculus with 6 samples.

Results

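The genes described are 10 that build the insulin secretory granule or process its prohormones: Chga, Chgb, Scg2, Scg3, Scg5, Pcsk1, Pcsk2, Cpe, Iapp and Ptprn. They were chosen by name for their function, out of 21887 protein-coding genes of the mouse RefSeq annotation. Each gene was given a territory, its mm10 span plus 10 kb on each side, and all 10 were among the 17711 genes with enough open chromatin to be tested. Open chromatin was mapped by ATAC-seq, in which the Tn5 transposase cuts accessible DNA, in β-cells of tamoxifen-treated mice sorted from dispersed islets for the red fluorescent protein Tomato. The study compared 3 libraries labelled control with 3 labelled Chd4KO, in which Chd4, the ATPase of the NuRD chromatin remodelling complex, was knocked out. Both groups had tamoxifen and the Tomato reporter, and the labels used here name neither the Cre driver nor the animals' age. Nor do they say whether the libraries came from separate animals, so that p-values speak only for the variation among these 6 libraries, and part or all of that variation could be technical.

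Insulin is made as a larger precursor, proinsulin, that is sorted into dense-core granules in the Golgi network. Within the granule, the prohormone convertases PC1/3 (Pcsk1) and PC2 (Pcsk2) cut the precursor, and carboxypeptidase E (Cpe) trims the basic residues that are left. Granins such as chromogranin A (Chga) and secretogranin III (Scg3) aggregate in the granule and help it form, Scg5 (7B2) is the chaperone and inhibitor of PC2, Iapp is the amyloid peptide secreted with insulin, and Ptprn (IA-2) spans the granule membrane.

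The annotated start of each of 9 of the 10 genes lay in an open region that was called in all 6 libraries. Of the starts of all 21006 protein-coding promoter windows described below, 59.1% lay in such a region. For Cpe no annotated start was used, and the region over the upper end of its span was called in all 6. The letters before the start were taken from RefSeq promoter windows of build GRCm38.p6, each 300 bases long, from 250 before to 50 after the annotated start. Windows matched 9 of the 10 genes by gene identifier, with 2 windows for Ptprn. Stretches are shown because TGACG, the core of the cAMP response element, was present in the windows of 8 of these 9 genes, all but Iapp. By window, 8 of the 10 held it. The Ptprn window with its start at 75263771 did not and is not printed. TGACG was present in 23.8% of all 21006 protein-coding windows searched. The stretches read 5′ to 3′ on the gene's strand, with TGACG or its reverse complement CGTCA in capitals. Those of Scg5 and Iapp have no capitals: the matches of Scg5 lie 175 bases before its start and at bases 20 and 41 from the start onward, outside the stretch printed, and Iapp has none in its window. Where the annotated start was the end of the gene's span, the 120 bases before it are given, and where it lay inside the span, only 30 bases around the first match.
Chga, chr12:102554821-102554940, plus strand: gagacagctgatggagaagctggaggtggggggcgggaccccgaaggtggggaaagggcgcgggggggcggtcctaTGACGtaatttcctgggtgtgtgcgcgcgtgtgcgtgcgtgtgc
Chgb, chr2:132781522-132781641, plus strand: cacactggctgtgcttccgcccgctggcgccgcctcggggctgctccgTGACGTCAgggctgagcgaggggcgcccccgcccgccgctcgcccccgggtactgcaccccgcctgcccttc
Scg2, chr1:79440027-79440146, minus strand: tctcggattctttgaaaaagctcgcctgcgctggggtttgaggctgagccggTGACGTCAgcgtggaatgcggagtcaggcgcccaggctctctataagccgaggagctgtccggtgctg
Scg3, chr9:75684068-75684097, minus strand: cgctgggtcgcTGACGccatcctcacgcct
Scg5, chr2:113829092-113829211, minus strand: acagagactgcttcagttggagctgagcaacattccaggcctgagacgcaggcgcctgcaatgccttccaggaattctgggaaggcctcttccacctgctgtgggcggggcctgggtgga
Pcsk1, chr13:75089768-75089797, plus strand: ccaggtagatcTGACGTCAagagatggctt
Pcsk2, chr2:143546013-143546132, plus strand: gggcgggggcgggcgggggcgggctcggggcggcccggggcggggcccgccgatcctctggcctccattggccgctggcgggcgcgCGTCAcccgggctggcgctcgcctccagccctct
Iapp, chr6:142298305-142298424, plus strand: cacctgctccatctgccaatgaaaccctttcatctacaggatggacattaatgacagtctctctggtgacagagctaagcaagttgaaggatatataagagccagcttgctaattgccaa
Ptprn, chr1:75264307-75264336, minus strand: ttacgccagtaTGACGcaaataggcataag

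The full palindrome TGACGTCA, which holds TGACG on both strands, was found in the windows of Chgb, Scg2 and Pcsk1, beginning 72, 68 and 78 bases before their starts. It was present in 2.25% of all windows. Among the 12405 windows whose start lay in a region called in all 6 libraries, 3.36% held TGACGTCA and 32.1% held TGACG. Each of the matches in the granule genes lay under a peak in all 6 libraries, so the letters stood in open chromatin in both genotypes. A match describes the letters and is neither a site nor a cause.

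The 6 other motifs named here were also searched on both strands. The E-box form CAGATG occurred only in the Iapp window (14.5% of all windows). The E-box form CAGCTG occurred in the windows of Chga, Chgb and Pcsk2 (15.7% of all windows), the MARE core letters TGCTGA only in that of Scg2 (18.1%), and the TATA-box letters TATAAA only in that of Chga (12.6%). The TATAAA of Chga begins at base 6 from the start onward, not before the start. The homeodomain letters TAATTA were in none of them, against 4.53% of all windows. The GC-box letters GGGCGG occurred in the windows of 6 genes, Chga, Chgb, Scg5, Pcsk1, Pcsk2 and Ptprn, and in 46.6% of all windows. The windows differed in base composition: that of Pcsk2 was 76.3% G or C with 36 CpG dinucleotides, and that of Iapp 44.3% with 4, where the median of all windows was 56.7% with 13.

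At the starts, the width of the open region passed the test for none of the 9 genes, nor did that over the upper end of Cpe. Width here is the number of bases under peaks of a library within the region, fitted over all 75312 regions called in all 6 libraries with limma, after scaling to the libraries' mean total over those regions. The Chga region, chr12:102554625-102555301, had 661, 640 and 667 bp under peaks in control libraries 1 to 3 and 657, 647 and 586 bp in knockout libraries 1 to 3 (log2 fold change −0.08 ± 0.08 SE, limma adjusted p = 0.57). At Pcsk2, chr2:143545306-143546543, the widths were 1035, 1011 and 1204 bp in control and 1034, 1226 and 1011 bp in knockout (−0.01 ± 0.10 SE, limma adjusted p = 0.96). At Scg3, chr9:75683536-75684306, they were 751, 740 and 747 bp in control and 771, 718 and 722 bp in knockout (−0.04 ± 0.06 SE, limma adjusted p = 0.74). At each of these starts the widths of the 2 groups overlapped.

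At Scg2, chr1:79439707-79440414, the groups did not overlap: 636, 631 and 633 bp in control and 648, 708 and 638 bp in knockout, all higher, with a difference that did not pass the test (0.05 ± 0.07 SE, limma adjusted p = 0.70). Among the other starts and the Cpe region the fitted differences ran from −0.24 ± 0.17 SE at Cpe to 0.05 ± 0.08 SE at Scg5, with limma adjusted p from 0.35 at Chgb to 0.99 at Ptprn. No promoter entry was used for Cpe, so its value belongs to the region over the upper end of its span, chr8:64691893-64693402. That region measured 1347, 1364 and 1368 bp in control and 1323, 1406 and 856 bp in knockout. Knockout library 3 was the low one, and without it the difference was −0.02. The widest start regions were those of Ptprn, 1537 to 2090 bp over the 6 libraries, and Pcsk1, chr13:75089282-75091309, 1575 to 1996 bp.

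Within each list, the authors' peak statistics placed these start peaks at very different ranks. The peak at the upper end of Cpe was in the top 0.745% to 1.73% of its list by q-value over the 6 libraries, with an authors' fold enrichment of 16.6 to 19.9. The Scg3 start peak was in the top 3.36% to 4.62%, and that of Scg5 in the top 4.35% to 5.34%. The Chga start peak was the weakest, in the top 20.4% to 47.4%, with a fold enrichment of 3.44 to 4.84. By group, it was in the top 20.45% to 23.01% in control and 32.61% to 47.38% in knockout. The Ptprn start peak was in the top 8.5% to 10.91% in control and 17.26% to 19.82% in knockout. Its fold enrichment was 13.97 to 15.69 in control and 11.5 to 12.89 in knockout. Places also lay apart at Chgb and Scg2, further down the list in knockout. In the opposite direction, fold enrichment was higher in every knockout library at Pcsk1 and Pcsk2. These differences were not tested. Ranks from lists of different lengths do not show a change between libraries. Summits lay close to the annotated starts, within 9 bp at Chga and Pcsk2, and between 120 and 69 bp before the start at Iapp.

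Across whole territories, open chromatin was measured as covered length, the bases under peaks in the territory, scaled so that every library had the same total. On this measure 3 of the 10 genes fell in the knockout, Chga, Scg3 and Pcsk2, and none rose (limma, Benjamini-Hochberg adjusted p under 0.05 over all 17711 genes, on log2 of covered length plus 300 bp). Of all genes tested, 14.6% fell and 7.57% rose. The median log2 fold change was −0.16 over the 10 genes and −0.09 over all genes. A value below 0 was found for 9 of the 10 and for 11726 of all 17711 genes. The fold change understates that of genes with little covered length.

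These 3 calls depended on the scaling. With no scaling none of the 10 fell and none rose, against 2.88% and 14.6% of all genes. With scaling to the regions called in all 6 libraries the count was again 0 in both directions, against 3.86% and 14.5%. The median of all genes moved from −0.09 to 0.06 with no scaling and to 0.05 with scaling to shared regions, while that of the 10 genes moved from −0.16 to 0.01 and −0.01. The 10 genes' median was thus below that of all genes under each of the 3 scalings, by less than 0.1 on the log2 scale. Leaving out each of the 6 libraries in turn left 0 to 2 of the 10 genes lower. With territories of 50 kb on each side, Chga (−0.17, limma adjusted p = 0.071) and Scg3 (−0.14, limma adjusted p = 0.13) no longer passed, and Scg5 did (−0.23, limma adjusted p = 0.021). Covered length counts bases, not reads.

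**Figure D1:**
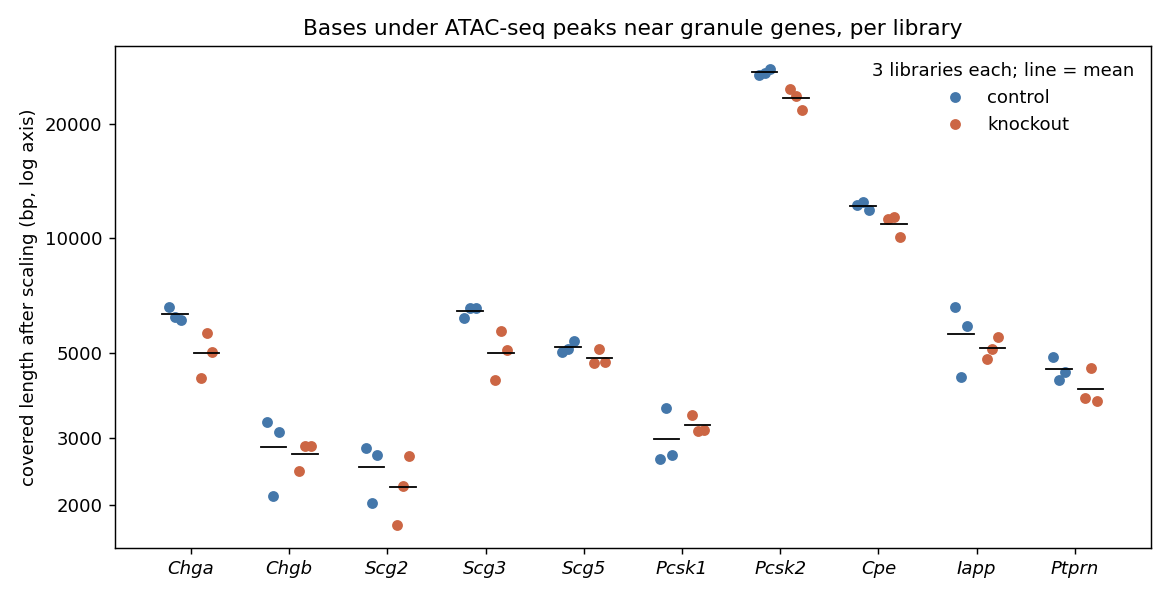
Covered length after scaling (bp, log axis) in the territory of each of the 10 genes, 1 point per library, 3 control and 3 knockout libraries, with a line at each group's mean. The groups do not overlap at Chga, Scg3, Pcsk2 and Cpe, where all knockout points are lower.

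**Figure D2:**
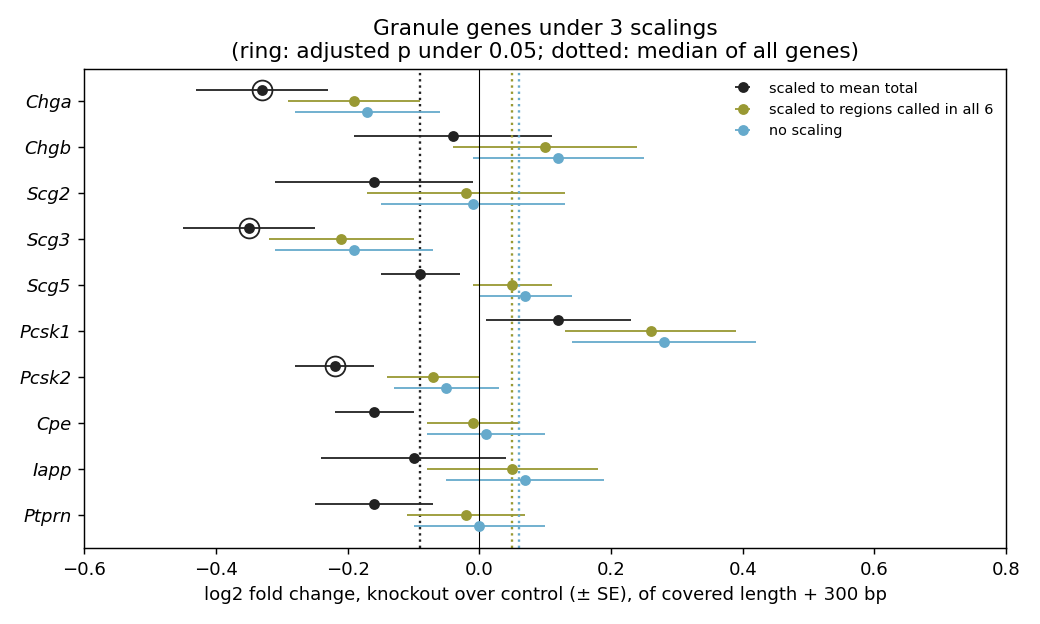
Log2 fold change of covered length plus 300 bp, knockout over control, with its SE, for the 10 genes under 3 scalings; rings mark a limma adjusted p under 0.05 and dotted lines the median of all genes under each scaling. Rings stand only at Chga, Scg3 and Pcsk2 under scaling to the mean total.

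Of the granins, Chga and Scg3 were the genes that fell. Chga (gene 12652, chr12:102554941-102565027), the precursor of several secreted peptides, had a scaled covered length of 6599, 6233 and 6127 bp in control libraries 1 to 3 and 4293, 5654 and 5038 bp in knockout libraries 1 to 3. After scaling, every knockout library was lower than every control library, with knockout 1 the lowest. The means were 6319 ± 247.7 bp (SD, n = 3) and 4995 ± 681.3 bp (SD, n = 3), a log2 fold change of −0.33 ± 0.10 SE (limma adjusted p = 0.044). It was −0.17 with no scaling (limma adjusted p = 0.34), where the groups overlapped. The unscaled values were 6006, 6241 and 5590 bp in control and 4544, 6134 and 5203 bp in knockout. Of the 6 fits that left out a library (−0.42 to −0.23), only that without knockout 2 kept the call.

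Most of the lower value at Chga came from 2 of its 7 regions, neither of them at the start. The first, chr12:102565913-102568448, lies between Chga and its neighbour Itpk1, 886 bp past the end of Chga. It had 2170, 2184 and 2229 bp under peaks in control and 1213, 2100 and 1666 bp in knockout, all knockout values lower, and after scaling it accounted for −771 of the total difference of −1325 bp. Its width did not pass the test (−0.46 ± 0.18 SE, limma adjusted p = 0.19). The authors' fold enrichment of its strongest peak went the other way, at 2.56 to 3.62 in control and 6.21 to 8.88 in knockout. Fewer bases under peaks there thus do not show weaker signal, and the difference in fold enrichment was not tested. The second, chr12:102560631-102561428 within the gene, had 735, 704 and 796 bp in control and 0, 488 and 200 bp in knockout, a scaled difference of −580 bp. In the opposite direction, a region 422 bp before the start, chr12:102554011-102554519, had 430, 381 and 0 bp in control and 493, 481 and 481 bp in knockout. Unlike the regions gained or lost and those at the starts, these were picked for description after their values were seen.

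Scg3 (chr9:75643366-75685959), which binds chromogranin A and tethers it to the granule membrane, had 6173, 6563 and 6567 bp in control and 4249, 5701 and 5102 bp in knockout. Here too the groups did not overlap after scaling and knockout 1 was the lowest. The log2 fold change was −0.35 ± 0.10 SE (limma adjusted p = 0.042), from means of 6434 ± 226.8 bp (SD, n = 3) to 5017 ± 729.7 bp (SD, n = 3). With no scaling it was −0.19 (limma adjusted p = 0.33), and the groups overlapped. The unscaled values were 5618, 6572 and 5992 bp in control and 4497, 6185 and 5269 bp in knockout. As at Chga, the call was kept only without knockout 2, and the values ran from −0.44 to −0.24. It was also lost with peaks of a −log10 q of at least 5 (−0.31, limma adjusted p = 0.068).

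Scg3 held 2 of the 4 lost regions found at the 10 genes, both within the gene. A region is termed lost when peaks of all 3 control libraries and of no knockout library reach it, and gained in the reverse case. The lost region chr9:75682235-75682722, 1334 bp from the start, had 455, 488 and 485 bp under control peaks, and chr9:75672789-75673168, 10888 bp from the start, had 380, 295 and 293 bp. After scaling they made up −506 and −344 of the total difference of −1417 bp. Scg3 also had a gained region outside the gene, chr9:75692272-75692584, with 223, 226 and 298 bp under knockout peaks. The territory reaches the neighbour Lysmd2.

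Chgb, Scg2 and Scg5 did not pass the test. Chgb (chr2:132781642-132795079), the second chromogranin, had 3302, 2106 and 3112 bp in control and 2447, 2844 and 2861 bp in knockout (−0.04 ± 0.15 SE, limma adjusted p = 0.86). Control 2 was the lowest of the 6 libraries and the groups overlapped. Its gained region, chr2:132777855-132778462, lay 3180 bp before the start with 283, 608 and 263 bp under knockout peaks, and its lost region, chr2:132795491-132796166, lay 412 bp past the gene end with 432, 440 and 676 bp under control peaks. Thus 1 region of each kind flanked the gene, on opposite sides.

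Scg2 (chr1:79434366-79440026), the precursor of secretoneurin, had 2815, 2022 and 2705 bp in control and 1771, 2237 and 2684 bp in knockout, with overlapping groups (−0.16 ± 0.15 SE, limma adjusted p = 0.47). Scg5 (chr2:113776313-113829091) had 5049, 5128 and 5387 bp in control and 4721, 5114 and 4727 bp in knockout (−0.09 ± 0.06 SE, limma adjusted p = 0.29). Neither gene had a gained or lost region, and 4 of 6 regions at Scg2 and 7 of 13 at Scg5 were called in all 6 libraries.

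The 2 convertase genes gave opposite signs. Pcsk2 (chr2:143546133-143816284), which encodes PC2, has the longest span of the 10 and the most covered length, more than 99.6% of the tested genes. It had 26824, 27150 and 27904 bp in control and 24659, 23709 and 21806 bp in knockout. All knockout libraries were below all control libraries, and the spread within control was the smaller one. The means were 27293 ± 554.1 bp (SD, n = 3) and 23391 ± 1453 bp (SD, n = 3), a log2 fold change of −0.22 ± 0.06 SE (limma adjusted p = 0.037). With no scaling it was −0.05 (limma adjusted p = 0.70). The call was lost whichever of the 6 libraries was left out, with log2 fold changes of −0.26 to −0.17 and limma adjusted p from 0.056 to 0.12.

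The scaled difference at Pcsk2 was spread over its 81 regions, of which 31 were called in all 6 libraries, 1 was gained and 1 lost. Part of it is the scaling itself, which lowers knockout values at every region. Unscaled, Pcsk2 had 24414, 27186 and 25459 bp in control and 26099, 25722 and 22521 bp in knockout, with overlapping groups. The start region had unscaled means of 1083 bp in control and 1090 bp in knockout, yet a scaled difference of −127 bp. The lost region, chr2:143790000-143790452 in the gene, had 453, 208 and 280 bp under control peaks and made up −337 of −3902 bp. The gained region, chr2:143592860-143593116, lay in the gene 46727 bp from the start and had 223, 246 and 211 bp under knockout peaks. The single largest falls were at chr2:143777055-143778093, with 549, 1039 and 460 bp in control against 259, 0 and 0 bp in knockout, and at chr2:143593977-143595084, with 519, 1108 and 598 bp against 0, 479 and 0 bp. The largest rise, at chr2:143751809-143752841, went from 225, 242 and 0 bp to 1021, 852 and 924 bp. These last 3 regions were also picked after their values were seen.

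**Figure D3:**
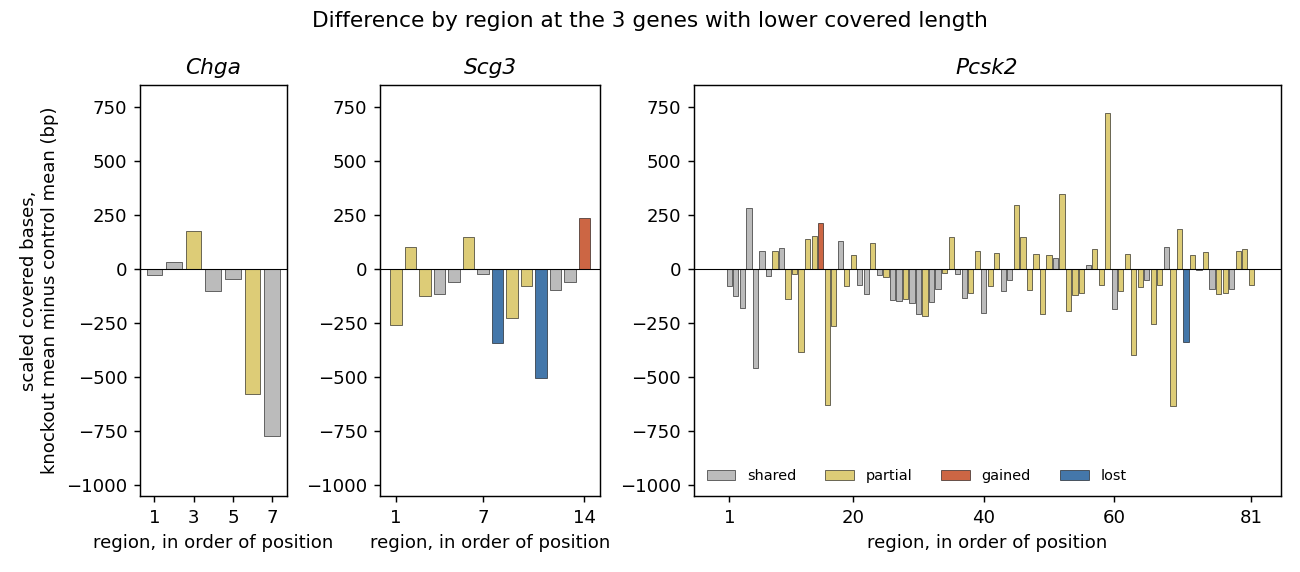
Scaled covered bases of each region at Chga, Scg3 and Pcsk2, knockout mean minus control mean (bp), with regions in order of position and coloured by class. At Chga 2 neighbouring regions carry −771 and −580 bp, at Scg3 the 2 lost regions carry −506 and −344 bp, and at Pcsk2 the values are spread over 81 regions with both signs. Scaling multiplied control values by 0.9987 to 1.0987 and knockout values by 0.9217 to 0.9682. A region with no unscaled fall can therefore have a negative bar.

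Pcsk1 (chr13:75089420-75134861), which encodes PC1/3, was the only gene of the 10 with a fold change above 0 under scaling to the mean total. It had 2635, 3587 and 2704 bp in control and 3442, 3128 and 3148 bp in knockout, and the groups overlapped because control 2 was the highest of the 6 (0.12 ± 0.11 SE, limma adjusted p = 0.43). Without control 2 it passed the test, at 0.25 (limma adjusted p = 0.048), and the fits without 1 library ran from 0.05 to 0.25. With no scaling it was 0.28 (limma adjusted p = 0.24). With the territory cut to 2 kb on each side it was −0.09. It had no gained or lost region, 2 of its 10 regions were called in all 6 libraries and the other 8 in other combinations of libraries. Pcsk1 was also the least densely covered, with 4.77% of its territory under peaks as a mean over libraries.

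Cpe (chr8:64592542-64693109) had 12236, 12446 and 11890 bp in control and 11253, 11391 and 10100 bp in knockout. All knockout libraries were lower after scaling, but the difference did not pass the test (−0.16 ± 0.06 SE, limma adjusted p = 0.11) and was 0.01 with no scaling. Unscaled, the groups overlapped, with 11137, 12463 and 10848 bp in control and 11910, 12358 and 10431 bp in knockout. Counting Cpe, the scaled groups did not overlap at 4 of the 10 genes, all lower in the knockout, where 32.7% of all genes were lower without overlap and 13.1% higher.

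Cpe had 3 of the 6 gained regions found at the 10 genes and no lost one. Those within the gene, chr8:64651401-64651726 and chr8:64676404-64676925, had 279, 326 and 323 bp and 343, 481 and 278 bp under knockout peaks. The third lay 6660 bp past the upper end of the span, chr8:64699769-64700004, with 201, 216 and 200 bp, close to the narrowest peak width of 200 bp in the lists. A further region in the gene chosen after its values were seen, chr8:64675067-64675894, had 828, 713 and 658 bp in control and 0, 321 and 0 bp in knockout.

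Iapp (chr6:142298425-142303820) lies inside the span of Slco1a5, so its territory is shared with that gene. It had 6616, 4328 and 5910 bp in control and 4841, 5134 and 5526 bp in knockout, with overlapping groups and the lowest value in control 2 (−0.10 ± 0.14 SE, limma adjusted p = 0.63). Peaks covered 21.1% of its territory as a mean over libraries, the highest share of the 10 genes. None of its 7 regions was gained or lost.

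The value at Iapp depended on which peaks were kept and on the territory. With 2 kb on each side it passed the test, at −0.35 (limma adjusted p = 0.048). With only the 50000 strongest peaks of each list by the authors' q-value, its unscaled covered length was 4792, 3923 and 4573 bp in control and 1694, 1763 and 1758 bp in knockout. The groups then lay far apart, with a log2 fold change of −1.22 ± 0.09 SE (limma adjusted p = 0.00085). Beyond the end of the gene, chr6:142304548-142305732 and chr6:142305933-142308112 were called in all 6 libraries but stood among the strongest 50000 in all 3 control lists and in no knockout list. Of all 75312 regions called in all 6 libraries, 5.57% did so, and 3.87% did so in the knockout lists alone. At the granule genes the corresponding counts were 5 of 77 regions, at Scg5, Pcsk2, Cpe and Iapp, and 2 of 77, both at Scg5. This describes places within lists and does not show that the height of these peaks changed. At chr6:142305933-142308112 the authors' fold enrichment was 2.94 to 3.29 in control and 2.77 to 3.12 in knockout. At chr6:142304548-142305732 it was 2.62 to 3.93 in control and 2.66 to 2.88 in knockout. With all peaks kept, mean bases under peaks were 1740 bp in control and 2151 bp in knockout at the former, and 1054 and 831 bp at the latter. The groups overlapped at both. At the Scg5 regions strong in knockout lists alone, fold enrichment was higher in every knockout library. It was 3.85 to 4.81 in control and 14.9 to 18.3 in knockout at chr2:113765760-113766316. At chr2:113784857-113785561 it was 5.61 to 7.69 and 16.8 to 17.1. At chr2:143559474-143560903 in Pcsk2, strong in control lists alone, it was 5.13 to 5.71 and 2.97 to 4.54. Ranges overlapped at the Scg5 and Cpe regions strong in control lists alone. Fold enrichment was not tested.

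Chga also had less covered length among the strongest 50000 peaks, 3037, 4878 and 4089 bp in control and 2165, 2482 and 2466 bp in knockout (−0.67 ± 0.16 SE, limma adjusted p = 0.047). Its start region was among the strongest 50000 in 3 control lists and 1 knockout list. The other 8 genes had values from −0.16 to 0.25 on these peaks and did not pass the test. Scg3 and Pcsk2, which fell when all peaks were kept, were at 0.03 and −0.14.

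Ptprn (chr1:75247035-75264497), a protein tyrosine phosphatase-like receptor of the granule membrane, had 4886, 4259 and 4461 bp in control and 3802, 4565 and 3739 bp in knockout. Knockout 2 lay within the control range, and the difference did not pass the test (−0.16 ± 0.09 SE, limma adjusted p = 0.21). It had no gained or lost region, and 5 of its 8 regions were called in all 6 libraries. The territory reaches Dnajb2 and Resp18.

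Counted over all 10 genes, 180 regions lay in the territories. Of these, 77 (42.8%) were called in all 6 libraries, against 48.0% of the 156745 regions of the series. Gained regions numbered 6 (3.33%), against 10.3% of all regions, and lost regions 4 (2.22%), against 2.62%. Of the 108235 regions in the territory of any tested gene, 8.86% were gained, 2.82% lost, 50.5% called in all 6 libraries and 37.8% in other combinations. The remaining 93 (51.7%) were called in other combinations, against 39.0% of all regions. By bases under peaks with no scaling, 26 of the 180 regions (14.4%) were higher in every knockout than in every control library and 15 (8.33%) lower, against 23.6% and 11.4% of all regions. All 6 gained and all 4 lost regions lay at Chgb, Scg3, Pcsk2 and Cpe. Of the 10 regions within 1 kb of the annotated starts, 9 were called in all 6 libraries and none was gained or lost. Of all protein-coding starts searched, 59.1% themselves lay in a region called in all 6 libraries.

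**Figure D4:**
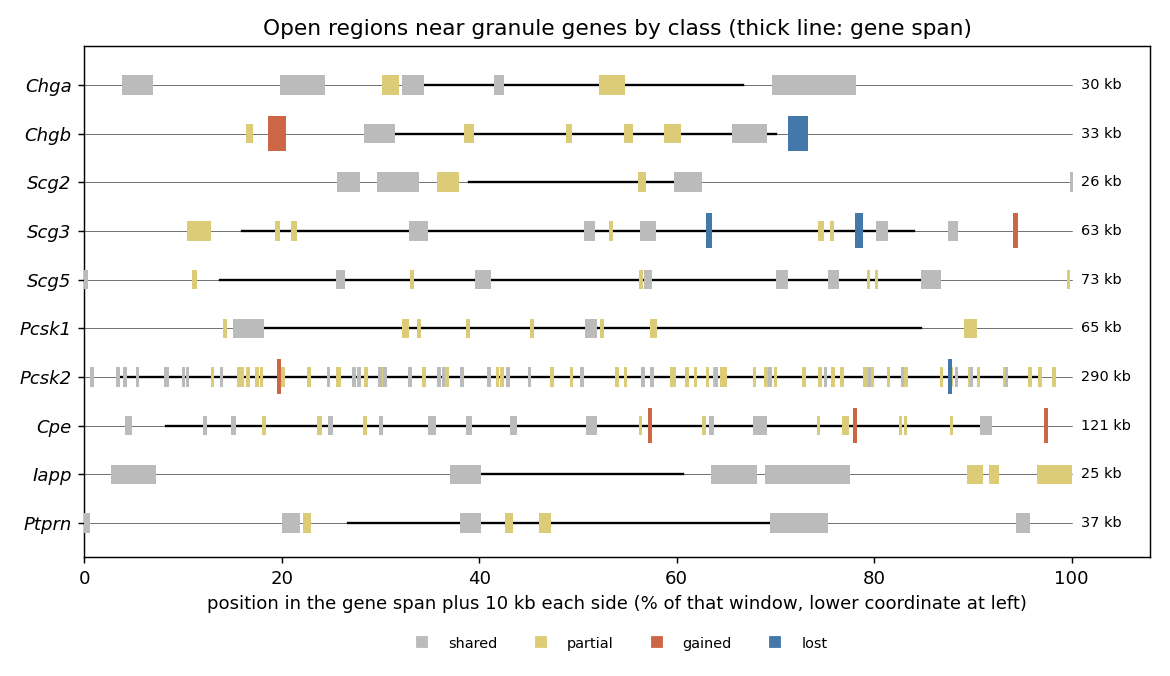
Open regions in the territory of each of the 10 genes, as a percentage of the territory's length with the lower coordinate at left; thick lines are gene spans, and the length of each territory stands at right. The 6 gained regions and 4 lost regions are drawn taller and lie at Chgb, Scg3, Pcsk2 and Cpe.

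Width within the 77 regions called in all 6 libraries differed at 2 of them, both wider in the knockout, where 4.18% of all such regions were wider and 2.98% narrower. At Pcsk2, chr2:143551331-143551998 within the gene had 209, 331 and 221 bp under peaks in control and 657, 534 and 555 bp in knockout. The groups lay apart, at 254 ± 67.2 bp (SD, n = 3) and 582 ± 65.8 bp (SD, n = 3), a log2 fold change of 1.20 ± 0.19 SE (limma adjusted p = 0.021). At Scg5, chr2:113765760-113766316 had 386, 399 and 373 bp in control and 537, 528 and 539 bp in knockout (0.45 ± 0.09 SE, limma adjusted p = 0.043). The second reaches into the territory only by its last bases, 9997 bp from the end of Scg5. With no scaling both remained wider and 1 more Pcsk2 region was narrower, against 4.37% and 2.62% of all such regions. The call at Scg5 was lost whichever library was left out, and that at Pcsk2 was kept only without control 2.

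The wider granule pathway was read from a list of 45 other genes with roles in granule content, processing, acidification or traffic. Of these, 7 (15.6%) fell and 2 (4.44%) rose in scaled covered length (limma, adjusted over all genes), against 14.6% and 7.57% of all genes, so the share that fell was near that of all genes. The median was −0.11 for the list and −0.09 for all genes. With no scaling 2 (4.44%) fell and 4 (8.89%) rose, against 2.88% and 14.6%, and the median was 0.06 for both. Of their 652 regions, 41 (6.29%) were gained, 11 (1.69%) lost and 341 (52.3%) called in all 6 libraries, against 10.3%, 2.62% and 48.0% of all regions.

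Ins1, a rodent insulin gene, fell from 4414 ± 250.6 bp (SD, n = 3) to 2768 ± 188.7 bp (SD, n = 3), a log2 fold change of −0.62 ± 0.07 SE (limma adjusted p = 0.0025), and passed with no scaling as well (−0.46, limma adjusted p = 0.0058). Slc18a2, the vesicular monoamine transporter VMAT2, had less covered length and fell too, from 976 ± 136 bp (SD, n = 3) to 530 ± 44.6 bp (SD, n = 3), with a log2 fold change of −0.62 ± 0.12 SE (limma adjusted p = 0.012). With no scaling its value was −0.50 (limma adjusted p = 0.038). Ins1 and Slc18a2 were the 2 genes of the list that passed as lower both with scaling to the mean total and with no scaling. Ins2, the other insulin gene, did not pass, with overlapping groups (−0.24 ± 0.14 SE, limma adjusted p = 0.23). With no scaling Ins2 was at −0.09 (limma adjusted p = 0.77). The call at Slc18a2 was lost with the 50000 strongest peaks (−0.09, limma adjusted p = 0.59), with a −log10 q of at least 5 (−0.40, limma adjusted p = 0.14) and with 50 kb territories (−0.08, limma adjusted p = 0.54).

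The other genes that fell were Rab27a, Ccdc186, Eipr1, Sort1 and Pick1. Rab27a, a small GTPase of granule docking, went from 10425 ± 613.5 bp (SD, n = 3) to 7821 ± 433.3 bp (SD, n = 3), at −0.40 ± 0.07 SE (limma adjusted p = 0.0090). Ccdc186 and Eipr1, which act in dense-core vesicle maturation, fell with log2 fold changes of −0.30 ± 0.07 SE and −0.19 ± 0.06 SE (limma adjusted p = 0.026 and 0.048). Sort1 (sortilin) fell with −0.28 ± 0.06 SE and Pick1, a BAR-domain protein of vesicle budding, with −0.27 ± 0.08 SE (limma adjusted p = 0.019 and 0.049). None of these 5 passed with no scaling, where the values were −0.24 at Rab27a, −0.14 at Ccdc186, −0.02 at Eipr1, −0.11 at Sort1 and −0.12 at Pick1. None passed with the 50000 strongest peaks. Rab27a alone of the 5 passed with scaling to shared regions (−0.25, limma adjusted p = 0.032), and it was kept whichever library was left out. Eipr1 was lost whichever library was left out, Ccdc186 without control 1, control 3, knockout 1 or knockout 2, Sort1 without control 1 or control 3, and Pick1 in every such fit except that without knockout 2.

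The 2 genes that rose were Atp6ap2 and Pcsk6. Atp6ap2, an accessory subunit of the vacuolar proton pump, went from 1179 ± 124.7 bp (SD, n = 3) to 2139 ± 89.5 bp (SD, n = 3), at 0.72 ± 0.08 SE (limma adjusted p = 0.0025). With the territory cut to 2 kb on each side its value was −0.15, with 50 kb 0.16 and with the 50000 strongest peaks 0.07, none of which passed. Pcsk6, a convertase of the constitutive pathway, went from 8112 ± 128.8 bp (SD, n = 3) to 9463 ± 59.0 bp (SD, n = 3), at 0.21 ± 0.05 SE (limma adjusted p = 0.024), and held 6 gained regions. Both also passed as higher with no scaling. The call at Pcsk6 was lost with the 50000 strongest peaks (0.13), and without control 1, control 3, knockout 1 or knockout 2, with little change in its value (0.20 to 0.22).

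Of 5 partners of the 10 genes named in any case, none passed the test with all peaks. Ptprn2, the paralog of Ptprn, had −0.09 ± 0.05 SE (limma adjusted p = 0.24) with 8 gained and 2 lost among 169 regions. Pcsk1n, which encodes the PC1/3 inhibitor proSAAS, had −0.28 ± 0.12 SE (limma adjusted p = 0.14), and Vgf, another granin, −0.14 ± 0.06 SE (limma adjusted p = 0.14). Pam, the peptide amidating enzyme, had −0.11 ± 0.08 SE (limma adjusted p = 0.33), and Slc30a8, the granule zinc transporter, −0.10 ± 0.08 SE (limma adjusted p = 0.36). With the 50000 strongest peaks Slc30a8 passed as higher (0.31, limma adjusted p = 0.0032) and Pcsk1n as lower (−0.47, limma adjusted p = 0.011). Pcsk1n also passed without knockout 2 (−0.42, limma adjusted p = 0.032).

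The libraries differed in how much was called. The lists hold 100109 to 110693 peaks over 58.0 to 63.8 Mb in control and 119088 to 124125 peaks over 65.8 to 69.1 Mb in knockout, and their read depth is unknown. The 8 β-cell marker genes had 3942 to 4271 bp of scaled covered length per gene in control and 3296 to 3445 bp in knockout. Of these 8, 2 were called lower, where 14.6% of all genes were. Other endocrine markers were lower too: δ-cell markers had 2182 to 2539 bp in control and 2024 to 2066 bp in knockout, PP and ε-cell markers 1340 to 1563 bp and 1177 to 1329 bp, and α-cell markers 2193 to 2492 bp and, overlapping with these, 2105 to 2201 bp. The 5 acinar markers had 218 to 299 bp per gene in control and 424 to 719 bp in knockout, with Cpa1 at 0 in all libraries, and the 3 mesenchyme markers 1443 to 1530 bp and 1790 to 1909 bp. Ranges overlapped for the other lists, control given first: duct 2849 to 3404 and 2461 to 3292 bp, endothelial 1771 to 1819 and 1767 to 2031 bp. Likewise blood markers had 2137 to 2267 and 1920 to 2143 bp, and neuron markers 11194 to 12362 and 10879 to 12128 bp. Marker values whose ranges lay apart moved with genotype, and the part of the markers in the results was not tested. Fewer cells of a type and less open chromatin per cell cannot be told apart. The marker values are also scaled, which by itself lowers knockout values against control values. The factors were 0.9987 to 1.0987 in control and 0.9217 to 0.9682 in knockout. How much of the marker differences is due to scaling was not tested. The deletion of Chd4 itself was not checked here.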

How the data were processed

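ATAC-seq peak lists of 6 libraries of sorted β-cells, 3 control and 3 Chd4 knockout, were analysed as grouped by the genotype label. Each list was called per library. Peak names in the deposited files point to MACS2 on shifted cutting sites. Per the submitters' processing notes, coordinates are those of mm10. For the caller's version and settings and for the aligner, nothing is given in the sources used here. The deposited score, fold enrichment (a ratio) and −log10 p and −log10 q per peak are the authors' and served only to rank, filter or describe peaks within a list. Per the values in the deposited files, the lowest −log10 q is 1.31.

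For covered length, bases under peaks were counted in the RefSeq GRCm38.p6 span plus 10 kb each side and scaled to the libraries' mean total. It was fitted on log2(bp + 300) by limma (3.58.1, R 4.3.3), using an intensity trend, over 17711 genes with a mean of at least 300 bp. Calls required a Benjamini-Hochberg adjusted p under 0.05. Peaks overlapping by at least 1 bp were merged into regions, and widths of the 75312 regions called in all 6 libraries were fitted the same way. The fits were tested on simulated data. Without read counts there is no depth and no counting interval.

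The 10 genes, the 45 pathway genes, the marker lists and the tests were chosen with earlier results of these data known. All 10 genes, all gained and lost regions, the start regions, regions passing the width test, and pathway genes passing the test or fixed by name (Ptprn2, Vgf, Pcsk1n, Pam, Slc30a8) are named. Ins2 was added beside Ins1. Over the marker lists, genes called higher and lower were 0 and 2 of 8 for β-cells, 0 and 1 of 5 for α-cells, 0 and 1 of 3 for δ-cells, and 0 and 0 of 2 for PP and ε-cells. They were 1 and 0 of the 2 tested among 5 acinar markers, 0 and 1 of 4 for duct, endothelial and blood, 1 and 0 of the 2 tested among 3 mesenchyme markers, and 0 and 1 of 3 for neuron markers. Of all genes tested, 7.57% were called higher and 14.6% lower. Ins1, Ins2 and Ucn3 are in both the β-cell and the pathway list. Alternatives covered scaling, the added bases, the filter, peak strength, territory size, region merging, a replicate block and leaving out each library.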

Additional observations from a re-analysis of the deposited data

How the results depend on the processing

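Covered length is set by peak calling, so scaling, peak strength and territory size move it, and none of the alternatives recovers depth. Genes called lower numbered 2577, and 510 with no scaling, 683 with scaling to shared regions, 1543 with the 50000 strongest peaks and 840 to 2225 without 1 library. Genes called higher numbered 1340, and 2586, 2564 and 698 to 1173 with no scaling, scaling to shared regions and without 1 library. The 3 granule genes called lower became 0 with no scaling, 0 with scaling to shared regions, 1 with a replicate block and 0 to 2 without 1 library, and the 0 called higher became 0 to 1. The 7 other pathway genes called lower became 2, 3 and 3 to 6 with no scaling, scaling to shared regions and without 1 library. The 2 called higher became 4 under either of those scalings, 1 with the 50000 strongest peaks, with 2 kb or 50 kb territories or a replicate block, and 1 to 2 without 1 library. The 6 gained regions became 2 with the 50000 strongest peaks, 3 with 2 kb and 13 with 50 kb territories, and 7 to 9 without 1 library. The 4 lost became 4 to 7 without 1 library, and the 77 shared became 32 with the 50000 strongest peaks, 126 with 50 kb territories and 77 to 81 without 1 library. Regions narrower in the knockout went from 0 to 1 with no scaling (Pcsk2, −0.24) and stayed at 0 without 1 library. The count of wider regions went from 2 to 0 with a replicate block and was 0 to 2 without 1 library. That count takes in any of the 77 regions, not only the 2 named above.

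Signs turned with no scaling at Chgb (0.12), Scg5 (0.07), Cpe (0.01), Iapp (0.07), Vgf (0.02), Pam (0.06), Ptprn2 (0.08), Slc30a8 (0.06) and the start widths of Pcsk2 (0.01) and Ptprn (0.02), and with scaling to shared regions at Chgb (0.10), Scg5 (0.05), Iapp (0.05), Vgf (0.00), Pam (0.04), Ptprn2 (0.06) and Slc30a8 (0.04). With the 50000 strongest peaks they turned at Chgb (0.16), Scg2 (0.25), Scg3 (0.03), Pcsk1 (−0.08), Ptprn (0.04), Slc30a8 (0.31, passing the test), Ccdc186 (0.07) and Sort1 (0.14), with a −log10 q of at least 5 at Chgb (0.19), and with 2 kb territories at Pcsk1 (−0.09) and Atp6ap2 (−0.15). Without 1 library the values ran from −0.22 to 0.07 at Chgb, −0.26 to 0.03 at Iapp, and in start width −0.01 to 0.10 at Scg5, −0.09 to 0.08 at Pcsk2 and −0.12 to 0.07 at Ptprn. The cause of these changes was not tested.

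Whether the replicate numbers pair the libraries could not be decided. Same-numbered deviations from the group means correlated at 0.13, 0.093 and −0.027, and control 3 correlated best with knockout 2 (0.083). With 3 libraries per group such deviations sum to 0 within a group, so these weak correlations neither show nor exclude pairing. With the replicate block, the limma adjusted p was 0.037 at Scg3, 0.065 at Chga and 0.067 at Pcsk2.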
